A study of Mus musculus with 16 samples.

Results

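The chemokine axis of CCR2 and the macrophage growth factors were followed through 10 genes, taken by their names as listed members of these pathways: Ccl2, Ccl7, Ccl8 and Ccl12, their receptor Ccr2, the growth factors Csf1 and Il34 with their receptor Csf1r, and the chemokine Cx3cl1 with its receptor Cx3cr1. All 10 were on the array, with 16 of its 55681 probes. All 10 passed the filter on dim signals and were among the 21985 genes and transcripts tested. Every member probe was well above background in the tumour channel on all 16 arrays, and none was saturated.

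The CC chemokines CCL2, CCL7, CCL8 and CCL12 draw monocytes out of the blood and into tissue, chiefly through the receptor CCR2 on inflammatory monocytes, although mouse CCL8 acts mainly through another receptor, CCR8. CSF1 and IL-34 are the ligands of CSF1R, the receptor tyrosine kinase on which monocytes, macrophages and Langerhans cells depend, and in skin IL-34 is made largely by keratinocytes. CX3CL1, or fractalkine, is made as a membrane-bound chemokine that metalloproteases shed, and its receptor CX3CR1 is carried by patrolling monocytes and many tissue macrophages.

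RNA of 16 mouse melanoma biopsies was hybridised in Cy5 against a universal mouse reference RNA in Cy3, with 4 tumours in each of 4 groups: untreated tumours, tumours treated for 4 days, tumours treated for 60 days, and tumours labelled resistant, at 120 days. The series title names BRAF inhibitors as the treatment. The drug, the dose, the alleles that drive the tumours, and the strain, age and sex of the mice are not given in the sources used here, nor is any property that all groups share beyond being melanoma biopsies. Codes in the sample titles are shared by some tumours of a group (3 of the 4 untreated tumours carry 1 code), and their meaning is not given. All 4-day tumours carry codes that begin with STS, and all other tumours carry codes that begin with RG. Differences between 4-day and other tumours therefore cannot be told apart from whatever these codes stand for. Nothing says that the tumours came from separate animals, so p-values measure the spread between these samples only. Values are log2 ratios of tumour over reference, so 1 unit is a doubling. A difference is given ± its standard error for 4 arrays against 4. That error uses a spread pooled over all 4 groups, so it also carries the spread of groups not compared. Replicate numbers are names only and pair nothing.

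Over genes, the median correlation between arrays was 0.894 within groups and 0.869 between groups. Resistant replicate 1 stood apart, with a median correlation of 0.698 with the other arrays, and values without it are given beside several results. Each slide held 2 arrays of every group. In the 60-day and resistant groups, the tumours on slide 1 share 1 title code and those on slide 2 share another. Differences between slides in these groups therefore cannot be told apart from differences between codes. Melanocyte markers were all 7 above background, and their mean log2 ratio was above 0 on every array, from 1.73 to 3.95. Lists of skin cells were far above the reference in the same biopsies: the 8 keratinocyte markers averaged 1.74 to 4.37 per array, and the 6 hair follicle markers 2.13 to 5.62.

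The probes of the 4 CC chemokines are shown because these genes are related and could share signal by cross-hybridisation, and those of Il34 and Cx3cl1 because these were the members that passed the test. Each probe has 60 bases, of which the first 30 are given as the array file lists them, with the whole probe's position on mouse build mm9. An annotation of that build was not used here, so exon and UTR are not stated.
Ccl2, chr11:81850650-81850709 (+): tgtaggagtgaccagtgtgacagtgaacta
Ccl7, chr11:81860656-81860715 (+): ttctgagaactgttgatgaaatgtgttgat
Ccl12, chr11:81916764-81916823 (+): cctgaagttccccacgggcagtgtgatatt
Ccl8, chr11:81930108-81930167 (+): accagaagtctcaaattctgcagccttgaa
Il34, chr8:113265835-113265894 (-): aagaacgacggggtgcctcctaggatccca
Cx3cl1, chr8:97306185-97306244 (+): tcccagagcagaatgtgggccgtaacaatc
Over the whole 60 bases, the longest run that any pair of the 4 chemokine probes had in common was 5 to 8 bases. The best ungapped identity of a pair, over at least 30 bases, was 36.7% to 47.2%. The 4 chemokine genes lie in a cluster on chromosome 11, in the order Ccl2, Ccl7, Ccl11, Ccl12 and Ccl8 in RefSeq's GRCm38.p6 annotation.

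Whether short and long treatment change the recruitment and growth signals of macrophages was asked by comparing each treated group with untreated tumours. After 4 days, 9 of the 10 members were lower than in untreated tumours and Il34 was higher, but the test passed 1 member, Cx3cl1, which fell. After 60 days the same 9 members were lower, and the member that passed was Il34, which rose. In resistant tumours no member passed, with 8 of 10 below untreated tumours, and 9 of 10 without resistant replicate 1. Genes and groups that did not pass are given by their values.

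**Figure D1:**
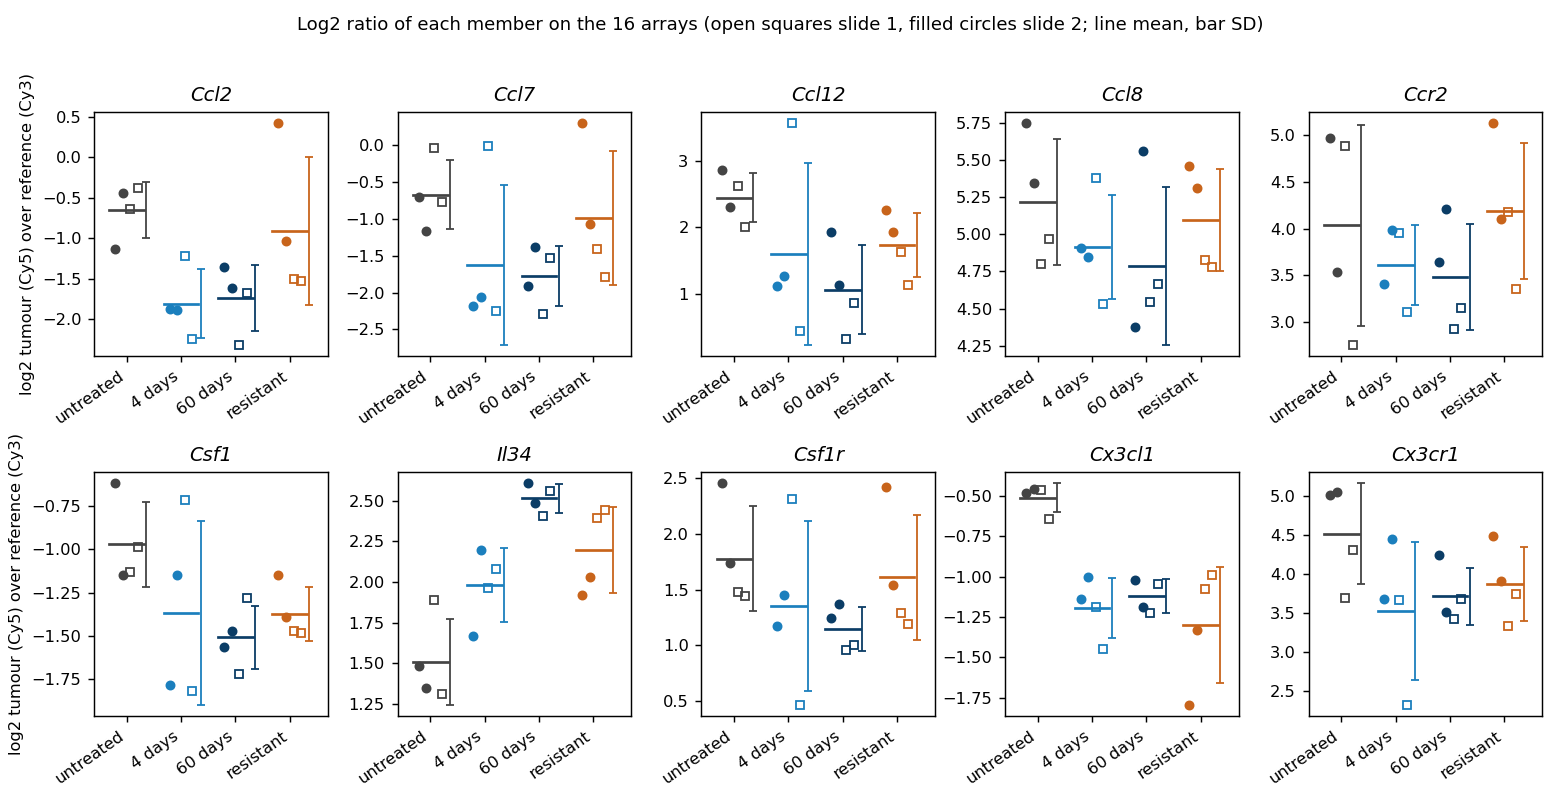
Log2 ratio of tumour over reference (y axis) for each of the 10 members in the 4 groups (x axis), 1 point per array, with open squares for slide 1 and filled circles for slide 2, a line at the group mean and a bar of 1 SD. Cx3cl1 was between -0.64 and -0.46 in untreated tumours and at or below -0.99 on all other arrays, Il34 was highest at 60 days, and resistant replicate 1 was the highest array for Ccl2 and Ccl7.

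Counted over all genes, limma with Benjamini-Hochberg adjustment passed 1.34% of the 21985 genes and transcripts at 4 days, 0.819% at 60 days and 0.0182% in resistant tumours, each against untreated tumours. Beside those shares the members gave 1, 1 and 0 of 10, and 4, 6 and 2 of 10 had an unadjusted p under 0.05, as did 16.7%, 18.7% and 9.52% of all genes. The median difference of the members was -0.56 at 4 days, where the median of all genes was -0.0078. At 60 days these medians were -0.62 and 0.00094, and in resistant tumours -0.29 and 0.012, or -0.55 and 0.00079 without resistant replicate 1. In a single test of any difference among the 4 groups (limma's moderated F, which passed 0.268% of genes), 1 member passed, Il34 with an adjusted p of 0.0493. That call held in 3 of the 16 fits that each left out an array and in 4 of 15 other settings.

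**Figure D2:**
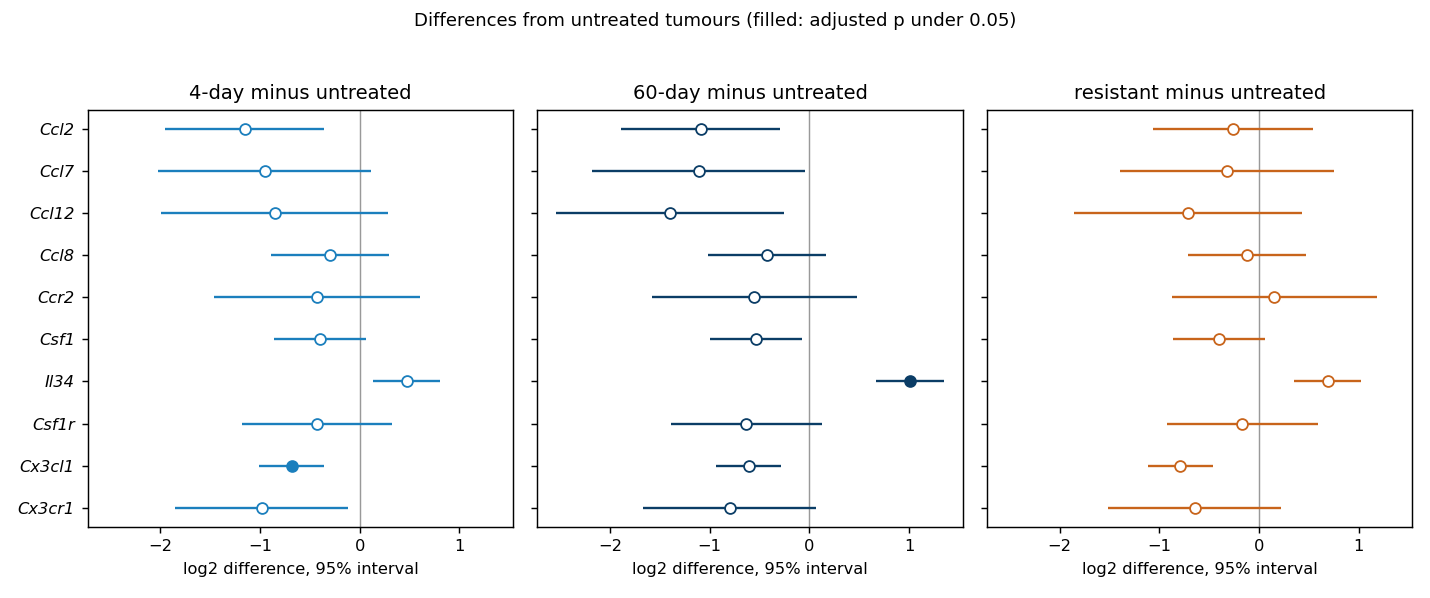
Log2 difference from untreated tumours (x axis) of each member (y axis) at 4 days, at 60 days and in resistant tumours, with lines for the 95% interval from limma and filled points for an adjusted p under 0.05. Most members lie left of 0 in all panels, Il34 lies right of 0 in all of them, and the filled points are Cx3cl1 at 4 days and Il34 at 60 days.

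Ccl2, the leading ligand of CCR2, was at log2 ratios of -1.14, -0.44, -0.64 and -0.38 in the 4 untreated tumours. After 4 days it was at -1.88, -1.89, -1.22 and -2.24, and after 60 days at -1.36, -1.62, -2.31 and -1.67. All 8 treated tumours were below all 4 untreated ones. The difference was -1.16 ± 0.37 at 4 days (2.23-fold lower) and -1.09 ± 0.37 at 60 days (2.13-fold lower), with limma adjusted p-values of 0.147 and 0.149. On slide 1 alone the differences were -1.22 and -1.48, and on slide 2 alone -1.09 and -0.70. The 10 spots of the Ccl2 probe on an array had an SD between 0.0384 and 0.0959, small beside the SD between untreated tumours of 0.34.

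Resistant tumours had Ccl2 at 0.42, -1.04, -1.50 and -1.53. Replicate 1, the array that stood apart, was the highest Ccl2 value of the 16, replicate 2 lay within the range of the untreated tumours, and the other 2 within that of the treated ones. The difference from untreated tumours was -0.26 ± 0.37 (95% interval -1.06 to 0.54), and without resistant replicate 1 it was -0.70. Between resistant and 60-day tumours the difference was 0.83 ± 0.37 (adjusted p = 0.867), and without that array 0.38 ± 0.27. Leaving out resistant replicate 1 also narrowed the shared spread, so that Ccl2 passed at 4 days (adjusted p = 0.0291) and at 60 days (adjusted p = 0.0273) with unchanged differences.

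Ccl7, a related CCR2 ligand next to Ccl2 in the genome, was at -0.70, -1.17, -0.04 and -0.78 in untreated tumours. It was at -2.19, -2.06, -0.0084 and -2.25 after 4 days, at -1.91, -1.38, -2.29 and -1.54 after 60 days, and at 0.30, -1.07, -1.41 and -1.79 in resistant tumours. The 60-day tumours were all below the untreated ones, whereas 4-day replicate 3 was level with the highest of them. The difference was -0.95 ± 0.50 at 4 days (adjusted p = 0.36) and -1.11 ± 0.50 at 60 days (adjusted p = 0.25). Without 4-day replicate 3 the 4-day difference was -1.49 ± 0.40 (adjusted p = 0.0677), and over all fits that each left out an array it ran from -1.49 to -0.75. In resistant tumours it was -0.32 ± 0.50, and without resistant replicate 1 it was -0.75.

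Ccl12, the mouse CCR2 ligand also called MCP-5, was at 2.86, 2.31, 2.63 and 2.00 in untreated tumours. After 4 days it was at 1.12, 1.27, 3.58 and 0.43, and after 60 days at 1.93, 1.13, 0.31 and 0.85. As with Ccl7, 4-day replicate 3 was the array that overlapped the untreated tumours, and here it was the highest of all 16. Resistant tumours were at 2.27, 1.93, 1.62 and 1.13 and overlapped both untreated and treated tumours. The difference was -0.85 ± 0.53 at 4 days (adjusted p = 0.464), -1.39 ± 0.53 at 60 days (2.63-fold lower, adjusted p = 0.187) and -0.71 ± 0.53 in resistant tumours (adjusted p = 0.734). Without 4-day replicate 3 the 4-day difference was -1.52 ± 0.36 and passed, with an adjusted p of 0.0482. Without 4-day replicate 4, the lowest of that group, it was -0.46 ± 0.53 (adjusted p = 0.826).

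Ccl8, which lies beside Ccl12, differed less in its ratio to the reference. It was at 5.75, 5.35, 4.80 and 4.97 in untreated tumours, 4.91, 4.85, 5.38 and 4.53 after 4 days, 4.38, 5.56, 4.55 and 4.67 after 60 days, and 5.46, 5.31, 4.82 and 4.78 in resistant tumours. All groups overlapped. The differences from untreated tumours were -0.30 ± 0.28, -0.43 ± 0.28 and -0.12 ± 0.28, the last being -0.24 without resistant replicate 1, and the 95% interval at 60 days ran from -1.02 to 0.17. The reference channel of this probe was not level, with means of 8.59, 8.28, 7.89 and 8.13 in untreated, 4-day, 60-day and resistant arrays. In the tumour channel alone the means were 13.80, 13.19, 12.68 and 13.22. The 60-day difference in that channel was -1.12, larger than in the ratio, and did not pass.

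The receptor Ccr2 was the most uneven member within untreated tumours, at 4.97, 3.54, 4.89 and 2.76. It was at 3.40, 3.98, 3.95 and 3.1 after 4 days, at 3.64, 4.21, 2.93 and 3.15 after 60 days, and at 5.13, 4.10, 4.17 and 3.36 in resistant tumours. The untreated values spanned nearly all the others, with an SD of 1.08 against 0.43, 0.57 and 0.73. The differences were -0.43 ± 0.48 at 4 days, -0.55 ± 0.48 at 60 days and 0.15 ± 0.48 in resistant tumours, where leaving out resistant replicate 1 turned the sign, to -0.16. The reference RNA was not well above background for the Ccr2 probe on any array, so its ratio to the reference has no exact size. In the tumour channel alone the 3 differences were -0.44, -0.57 and 0.13. In whole-biopsy RNA, fewer cells of a kind and less RNA per cell cannot be told apart, for this receptor and for all other members.

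Beside these ligands and Ccr2, the 11 measured of 12 macrophage markers averaged 2.27 ± 0.34 (SD, n = 4) in untreated tumours, 1.87 ± 0.45 after 4 days, 1.84 ± 0.34 after 60 days and 2.19 ± 0.48 in resistant tumours. Their array means ran from 1.95 to 2.75, 1.32 to 2.35, 1.51 to 2.24 and 1.74 to 2.84 in those groups. Of the macrophage list, Cd163 was not well above background on enough arrays to be tested. The 9 measured of 10 monocyte markers, among them not Ly6c2, averaged 0.76 ± 0.19, 0.54 ± 0.50, 0.25 ± 0.17 and 1.02 ± 0.86, with array means from 0.51 to 0.96, 0.16 to 1.28, 0.08 to 0.47 and 0.26 to 2.13. The highest macrophage and monocyte means of their groups were on 4-day replicate 3 and on resistant replicate 1, the arrays with the highest Ccl2 and Ccl7 of those groups. Without resistant replicate 1 the resistant means were 1.97 for macrophage and 0.65 for monocyte markers. No marker of either list passed the test, and the part of these cells in the chemokine and receptor values was not tested.

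**Figure D3:**
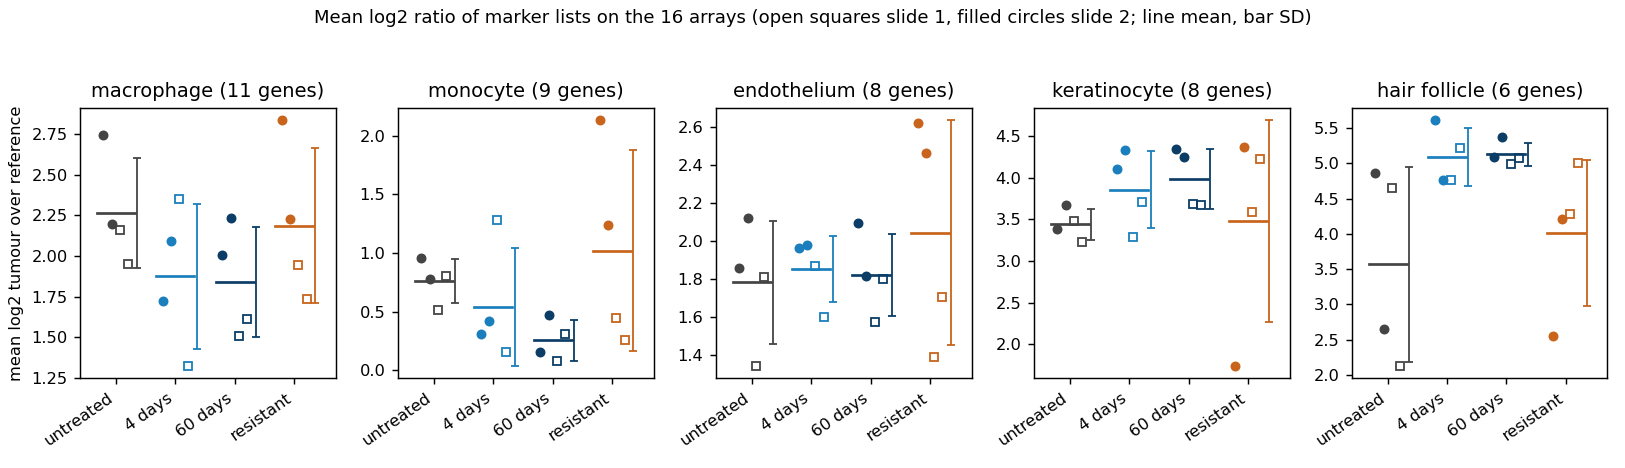
Mean log2 ratio of tumour over reference (y axis) of 5 marker lists on each array by group (x axis), with symbols, lines and bars as for the members. Macrophage and monocyte means reach their highest on resistant replicate 1, where the keratinocyte mean of 1.74 and the hair follicle mean of 2.56 are the lowest of their group.

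Csf1, the classical macrophage growth factor, was at -0.62, -1.15, -1.13 and -0.98 in untreated tumours, -1.78, -1.15, -0.72 and -1.82 after 4 days, -1.56, -1.47, -1.72 and -1.28 after 60 days, and -1.15, -1.39, -1.47 and -1.48 in resistant tumours. All 60-day tumours were below the untreated ones. The 4-day group was wide and overlapped them, and the resistant group touched them at its highest array. The differences were -0.40 ± 0.22, -0.54 ± 0.22 and -0.40 ± 0.22, with adjusted p-values of 0.38, 0.203 and 0.592. A second and a further Csf1 probe, both designed on another RefSeq transcript, gave smaller differences, -0.14 and -0.11 at 4 days, -0.31 ± 0.20 and -0.25 ± 0.20 at 60 days, and -0.06 and -0.12 in resistant tumours. Those 2 probes, at chr3:107548521-107548580 and chr3:107548550-107548609, overlap each other and are not separate measurements. The 10 spots of the main probe had an SD of 0.042 to 0.0882 within an array.

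Il34, the other ligand of CSF1R, went the opposite way. It was at 1.48, 1.35, 1.89 and 1.31 in untreated tumours, 1.67, 2.20, 1.96 and 2.08 after 4 days, and 2.61, 2.49, 2.41 and 2.56 after 60 days. Resistant tumours were at 1.92, 2.03, 2.40 and 2.44. The 60-day tumours were above every untreated and every 4-day tumour, and the resistant tumours were also all above the untreated ones. Untreated replicate 3 was the highest of its group and overlapped the 4-day tumours.

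Il34 rose by 1.01 ± 0.16 at 60 days (2.01-fold higher, adjusted p = 0.0145), rank 22 by p among all genes tested. On slide 1 the difference was 0.88 and on slide 2 it was 1.13. At 4 days it was 0.47 ± 0.16 (adjusted p = 0.161) and in resistant tumours 0.69 ± 0.16 (95% interval 0.35 to 1.03, adjusted p = 0.139). Between 60 and 4 days it was 0.54 ± 0.16, in a comparison in which limma passed 0% of genes and 412 had an unadjusted p under 0.05. From 60 days to resistance the difference was -0.32 ± 0.16 (adjusted p = 0.868). The 60-day call held in 10 of the 16 fits that each left out an array, with adjusted p-values from 0.00267 to 0.0635, and in 11 of 16 other settings, with adjusted p-values from 0.000279 to 0.621.

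Markers of keratinocytes, a known source of IL-34, were measured beside it. All 8 keratinocyte markers were above background, and their mean was 3.44 ± 0.19 (SD, n = 4) in untreated tumours, 3.86 ± 0.46 after 4 days, 3.99 ± 0.36 after 60 days and 3.48 ± 1.21 in resistant tumours. The array means ran from 3.22 to 3.67, from 3.28 to 4.33, from 3.67 to 4.35 and from 1.74 to 4.37. The resistant mean was 4.06 without resistant replicate 1. The 6 hair follicle markers averaged 3.57 ± 1.38, 5.09 ± 0.41, 5.13 ± 0.17 and 4.02 ± 1.04, with array means from 2.13 to 4.86, 4.76 to 5.62, 4.99 to 5.37 and 2.56 to 5.01. Their resistant mean was 4.5 without resistant replicate 1. No gene of these lists passed the test. Whether the skin content of a biopsy has a part in the Il34 values was not tested.

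Csf1r, the receptor of both factors, was at 2.46, 1.74, 1.48 and 1.44 in untreated tumours, 1.18, 1.45, 2.32 and 0.46 after 4 days, 1.24, 1.37, 0.96 and 1.01 after 60 days, and 2.42, 1.54, 1.29 and 1.19 in resistant tumours. The 60-day tumours lay below all untreated ones, and the 4-day group again overlapped them through replicates 2 and 3. The differences were -0.43 ± 0.35, -0.63 ± 0.35 and -0.17 ± 0.35, none past the threshold (adjusted p = 0.623, 0.359 and 0.934). Without 4-day replicate 3 the 4-day difference was -0.75, without 4-day replicate 4 it was -0.13, and without resistant replicate 1 the resistant difference was -0.44. The other probes of Csf1r gave 60-day differences of -0.51 ± 0.29 and -0.23 ± 0.17.

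Cx3cl1, the membrane-bound chemokine fractalkine, was at -0.48, -0.46, -0.46 and -0.64 in untreated tumours. It was at -1.14, -1.01, -1.19 and -1.45 after 4 days, -1.02, -1.19, -1.23 and -1.04 after 60 days, and -1.79, -1.33, -1.08 and -0.99 in resistant tumours. All 12 treated and resistant tumours were below all 4 untreated ones.

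Cx3cl1 fell by 0.68 ± 0.15 on the log2 scale at 4 days (1.61-fold lower, adjusted p = 0.0459). At 60 days the difference was -0.61 ± 0.15 (adjusted p = 0.0706), and in resistant tumours -0.79 ± 0.15 (adjusted p = 0.105), where it ranked 20 by p among all genes. On slide 1 the resistant difference was -0.48 and on slide 2, which held resistant replicate 1, it was -1.09. Between the treated and resistant groups the differences were small, 0.08 ± 0.15 from 4 to 60 days, -0.10 ± 0.15 from 4 days to resistance and -0.18 ± 0.15 from 60 days to resistance. The last of these had a 95% interval of -0.51 to 0.15. The 4-day call held in 2 of the 16 fits that each left out an array (adjusted p from 0.0118 to 0.138) and in 7 of 16 other settings (adjusted p from 0.00429 to 1), with a difference between -0.76 and -0.59 throughout those settings. Without resistant replicate 1 Cx3cl1 also passed at 60 days (adjusted p = 0.0133), and its resistant difference was -0.62.

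Endothelium is a known source of CX3CL1, and its 8 markers, all above background, averaged 1.78 ± 0.32 (SD, n = 4), 1.85 ± 0.17, 1.82 ± 0.21 and 2.04 ± 0.59 in untreated, 4-day, 60-day and resistant tumours. Array means ran from 1.34 to 2.12, 1.60 to 1.98, 1.57 to 2.09 and 1.39 to 2.62. The part of endothelial content in the Cx3cl1 values was not tested. The shedding proteases Adam10 and Adam17 differed from untreated tumours by -0.28 to 0.15 in the treated and resistant groups, and neither passed the test.

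Cx3cr1, the fractalkine receptor, was at 5.01, 5.05, 3.69 and 4.30 in untreated tumours, 3.68, 4.45, 3.66 and 2.32 after 4 days, 4.24, 3.52, 3.43 and 3.68 after 60 days, and 4.48, 3.91, 3.34 and 3.74 in resistant tumours. The groups overlapped. Untreated replicate 3 lay within the range of every other group, and 4-day replicate 2 and resistant replicate 1 were above untreated replicate 4. The differences were -0.98 ± 0.41 at 4 days (adjusted p = 0.245), -0.80 ± 0.41 at 60 days (adjusted p = 0.313) and -0.65 ± 0.41 in resistant tumours (adjusted p = 0.663). The reference channel of this probe averaged 7.16 on untreated arrays and 6.68, 6.64 and 6.74 on 4-day, 60-day and resistant arrays. In the tumour channel alone the differences were larger, at -1.46, -1.32 and -1.07, and none passed. The other 2 probes of Cx3cr1 gave ratios that differed by -0.74 and -0.93 at 4 days and by -0.75 and -0.91 at 60 days. For the first of them the reference was well above background on 6 of 16 arrays. The second, at chr9:119957811-119957870, overlaps most of the main probe at chr9:119957806-119957865 and is not a separate measurement.

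At 60 days 6 of the 10 members (Ccl2, Ccl7, Ccl12, Csf1, Csf1r and Cx3cl1) had all 4 treated tumours below all 4 untreated ones, against 6.4% of all genes. Il34 had them all above, against 7.4% of all genes. At 4 days Ccl2 and Cx3cl1 did not overlap with untreated tumours, 2 of 10 against 4.19% of all genes. In resistant tumours 1 of 10, Cx3cl1, lay wholly below untreated tumours (2.74% of all genes) and 1 of 10, Il34, wholly above (1.55%). Between 60 and 4 days Il34 was the 1 member whose groups did not overlap, higher at 60 days (0.828% of all genes). Since the 3 comparisons share the untreated tumours, these counts are not independent of each other.

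Whether the treated tumours differed from untreated and resistant tumours together was tested with 1 contrast over all 16 arrays, in which 0.496% of genes passed. Of the members 9 were lower in treated tumours, 0 passed with limma, and 4 had an unadjusted p under 0.05, as did 18.7% of all genes. The median difference was -0.51 against -0.0089 for all genes. Ccl2 differed by -0.99 ± 0.26 (adjusted p = 0.0789), Ccl7 by -0.87 ± 0.35 and Ccl12 by -0.77 ± 0.38. Without 4-day replicate 3 these were -1.09, -1.14 and -1.10, and all 3 passed (adjusted p = 0.0499, 0.0485 and 0.0425). None of the 3 passed in any of the other 15 such fits. Without resistant replicate 1 they were -0.77, -0.66 and -0.68 (adjusted p = 0.0811, 0.36 and 0.477). Il34 differed by 0.39 ± 0.11 (adjusted p = 0.0897).

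From treatment to resistance the members showed no difference that passed. Against 4-day tumours 8 of 10 were higher in resistant tumours, with a median of 0.24, and against 60-day tumours 8 of 10, with a median of 0.39. When resistant replicate 1 was left out, these were 7 of 10 with a median of 0.10 and 7 of 10 with a median of 0.19, and 0 members had an unadjusted p under 0.05 in either. The medians of all genes were 0.0088 and -0.0028. Limma passed 0 members in each comparison, where 0.00455% and 0% of all genes passed, and 1 member in each, Ccl2, had an unadjusted p under 0.05, as did 8.19% and 5.67% of all genes. Between 60 and 4 days 6 of 10 members were lower, with a median of -0.13 against 0.017 for all genes. No member passed there, and 1, Il34, had an unadjusted p under 0.05, as did 1.87% of all genes.

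Across the 16 tumours many pairs of members varied together. Of the 45 pairs of members, 35 had a positive Pearson correlation, and 21 passed a permutation test with 100000 resamples after Benjamini-Hochberg adjustment, all of them positive. The share of all gene pairs that would pass was not computed, so these counts do not show anything particular to the members. The main axis of variation over all genes held 39.9% of the variance between arrays. The permutations shuffled all arrays and took no account of groups or title codes. The closest pairs were Ccl12 with Csf1r (r = 0.847, Spearman rho = 0.9), Ccl7 with Ccl12 (r = 0.828, rho = 0.859) and Ccl2 with Ccl7 (r = 0.828, rho = 0.871), each with an adjusted permutation p of 0.00099. Without the 2 tumours farthest from the median of the first gene of each pair, these were 0.815, 0.826 and 0.765. The Ccl2 and Ccl7 pair gave r = 0.827 on slide 1 and r = 0.887 on slide 2.

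Csf1r passed with 7 of its 9 partners, and Ccl7, Ccl12 and Csf1 with 6 each. The 21 pairs that passed had r from 0.565 to 0.847 over 16 arrays and from 0.54 to 0.884 without resistant replicate 1. After each group's mean was subtracted, which leaves only the spread within groups, they ran from 0.428 to 0.826. Il34 and Cx3cl1, the members that passed a group comparison, passed with no partner by Pearson r over the 16 arrays. Il34 correlated negatively with all 9 others, from -0.53 with Ccl2 to -0.11 with Ccr2, and none of these passed by Pearson r. A permutation test of Spearman rho, adjusted by itself, passed Il34 with Ccl2 (rho = -0.574), Ccl12 (rho = -0.559) and Csf1r (rho = -0.559). The adjusted permutation p-values were 0.0458, 0.0481 and 0.0481. The permutation test of Pearson r over the 15 arrays without resistant replicate 1 also passed 21 pairs, but they included 4 of Cx3cl1. Its r went from 0.148 to 0.745 with Ccl2 (adjusted permutation p = 0.00751), from 0.471 to 0.732 with Cx3cr1 (adjusted permutation p = 0.00745) and from 0.45 to 0.621 with Csf1 (adjusted permutation p = 0.0366). Il34 then passed with 2 partners, at r = -0.617 with Ccl2 and r = -0.6 with Cx3cl1 (adjusted permutation p = 0.0366 and 0.0429). With group means subtracted, over all 16 arrays, Cx3cl1 had r = -0.56 with Ccl2, 0.09 with Cx3cr1, -0.0038 with Csf1 and 0.57 with Il34. Il34 had r = -0.42 with Ccl2 in that form. These last values include resistant replicate 1, and the 15 arrays were not treated that way. Whether the pairs keep their correlation over the 15 arrays within groups was therefore not tested. The arrays share tissue composition and slides, and the correlations are over these 16 tumours only.

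**Figure D4:**
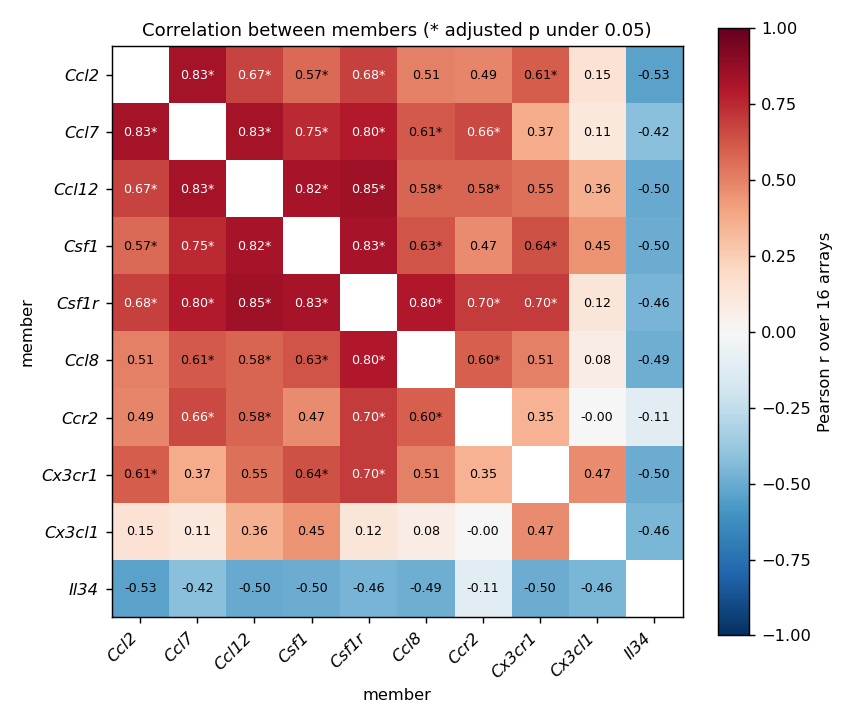
Pearson correlation of log2 ratios over the 16 arrays for each pair of members (both axes), from -1 in blue to 1 in red, with an asterisk where the adjusted permutation p is under 0.05. The block of positive values holds the chemokines, Csf1 and the receptors, Cx3cl1 has no asterisk with any member, and the Il34 row is negative throughout.

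For each member the 3 most similar of 21503 other genes with values on all arrays were found by Pearson correlation over the 16 arrays, as a description. Csf1r was closest to Pla2g15 (r = 0.951), C1qb (r = 0.942), a complement subunit made by macrophages, and Akr1b10 (r = 0.938). Ccl12 was closest to Tnip2 (r = 0.922), Fcgr1 (r = 0.911), an Fc receptor of macrophages, and Nlrc4 (r = 0.902). Ccr2 was closest to C3ar1 (r = 0.908), Coro1a (r = 0.889) and Naip6 (r = 0.886), and Ccl7 to Snx10 (r = 0.93), Htra2 (r = 0.921) and Tcirg1 (r = 0.921).

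Csf1 was closest to Fbxw17 (r = 0.908) and to Ube2l6 (r = 0.902) and Psmb10 (r = 0.901), the latter a subunit of the immunoproteasome. Ccl8 was closest to Slc8a1 (r = 0.864), Plcl2 (r = 0.823) and Vcam1 (r = 0.815), Il34 to Ak3 (r = 0.889), Adgrb1 (r = 0.877) and Zcchc12 (r = 0.867), and Cx3cl1 to Adamts8 (r = 0.934), Asgr2 (r = 0.926) and Ssrp1 (r = 0.882). Cx3cr1 was closest to Cradd (r = 0.954), Snhg18 (r = 0.954) and AA414768 (r = 0.947), and Ccl2 to Vmn2r111 (r = 0.963) and 2 unnamed probes. Without resistant replicate 1 the named genes had r from 0.795 to 0.955 with their member.

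RefSeq promoter windows (GRCm38.p6) were matched by symbol for 6 of the 10 members. Windows of 3 members are shown, 250 bases up to the transcription start, 5′ to 3′ on the gene's strand: Cx3cl1, which fell at 4 days, and Csf1 and Ccl12, which varied together (r = 0.824). Capitals mark matches to the motifs searched on both strands, AP-1 (TGANTCA), GAS (TTCNNNGAA), the Sp1 GC box (GGGCGG) and the NF-kB consensus.
Cx3cl1, chr8:94771930-94772179 (+): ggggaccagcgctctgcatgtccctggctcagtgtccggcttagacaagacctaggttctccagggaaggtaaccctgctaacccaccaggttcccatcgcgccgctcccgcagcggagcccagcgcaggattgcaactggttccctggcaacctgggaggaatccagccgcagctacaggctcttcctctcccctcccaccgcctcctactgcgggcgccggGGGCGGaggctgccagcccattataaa
Csf1, chr3:107760470-107760719 (-): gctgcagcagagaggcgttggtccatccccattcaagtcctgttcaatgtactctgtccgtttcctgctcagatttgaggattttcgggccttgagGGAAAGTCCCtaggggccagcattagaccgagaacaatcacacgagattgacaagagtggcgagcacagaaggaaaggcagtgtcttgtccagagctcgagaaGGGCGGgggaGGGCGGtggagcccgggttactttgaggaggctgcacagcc
Ccl12, chr11:82101595-82101844 (+): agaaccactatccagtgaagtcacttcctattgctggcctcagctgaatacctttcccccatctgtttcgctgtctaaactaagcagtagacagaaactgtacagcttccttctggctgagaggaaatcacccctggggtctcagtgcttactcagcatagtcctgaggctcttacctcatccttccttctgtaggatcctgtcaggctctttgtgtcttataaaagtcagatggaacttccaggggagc
Csf1 held 1 NF-kB match and 2 GC boxes, and Cx3cl1 held 1 GC box. The windows of Ccl12, Ccl8, Ccr2 and Cx3cr1 held none of the 4 motifs. Over all 32851 windows of this length in the table, 7.25% held the NF-kB consensus, 32.7% the GC box, 6.75% AP-1 and 7.02% GAS, and no motif overlapped another in the windows shown. A match describes the letters only.

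The other genes of the pathways were taken from lists of monocyte chemokines, chemokine receptors, myeloid growth factors and their receptors, fractalkine proteases, CSF1R signalling and lineage factors, and inducers of CCL2. Of 48 listed genes 44 were tested, and Ccr1, Csf2, Csf3 and Il3 were not above background on enough arrays. At 4 days 33 of 44 were below untreated tumours with a median of -0.23 and 0 passed, at 60 days 33 of 44 with a median of -0.30 and 1 passed, and in resistant tumours 15 of 44 with a median of 0.11 and 0 passed. The resistant median turned to -0.03 without resistant replicate 1, with 23 of 44 below untreated tumours. The gene that passed was Ackr4, an atypical receptor that scavenges other chemokines. It was at 1.37 ± 0.69 (SD, n = 4) in untreated and 2.92 ± 0.22 in 60-day tumours and rose by 1.54 ± 0.34 (adjusted p = 0.0483), a call held in 3 of 16 fits that each left out an array (adjusted p from 0.0117 to 0.15).

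The 8 other monocyte chemokines were all lower at 60 days, with a median difference of -0.47, and 0 passed. Among them Ccl9 differed by -0.71 ± 0.45 and Cxcl12, a stromal chemokine, by -0.22 ± 0.57. Of the 9 CSF1R signalling and lineage factors 6 were lower at 60 days (median -0.69), among them Tyrobp, an adaptor of myeloid receptors, at -0.79 ± 0.40, whereas Cebpb, a myeloid transcription factor, was at 0.72 ± 0.29. Of the 10 inducers of CCL2 7 were lower at 60 days, with a median of -0.21, and the bright members Jun and Nfkbia differed by -0.05 ± 0.25 and 0.47 ± 0.27. Vegfa and Flt3l, the growth factors measured, differed by -0.18 ± 0.13 and 0.41 ± 0.22, and the receptors Csf3r, Sdc1 and Cxcr4 by -0.41 ± 0.22, 0.88 ± 0.44 and -0.09 ± 0.36. The Csf3r probe was the brightest of the genes named here, at a mean log2 intensity of 15.2, and whether it measures Csf3r alone was not tested. None of the genes named here besides Ackr4 passed.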

How the data were processed

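The authors' spot values, per the file headers, are intensity values from Agilent's Feature Extraction software (version 10.7.3.1), as mean foreground and median background of both dyes. In the deposited files, processed intensity values, their log10 ratio of Cy5 over Cy3 and flag columns of another kind stand beside them. The deposited value table holds log2 ratios (slope against the log10 ratio after a change of base 0.993) and lacks 21.6% to 40.2% of values per array. Its columns were left uncentred: their medians ran from -0.194 to -0.0638.

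Spot intensities were corrected with normexp (offset 50), normalised within arrays by loess without control spots, and averaged to probes with limma 3.58.1 in R 4.3.3. Spots flagged as outliers (0.55% of values) were left out. Probes had to be above background in Cy5 on at least 4 of 16 arrays, which kept 30486. Symbols were updated through RefSeq accessions for 19887 of them, and each gene was represented by its brightest probe. All 4 groups shared 1 limma model, with Benjamini-Hochberg adjustment over 21985 genes and a threshold of 0.05. The fit was tested on simulated data with known changes. In the comparison of 4-day with untreated tumours it recovered 65 of 100 changes of 1 log2 unit. Of 100 changes of 2 log2 units it recovered 92, and there were 8 false calls. The number of arrays limits the precision. The members are named in full; among pathway genes, those that passed and the brightest 1 or 2 of each list are named. The members and lists were chosen with earlier results of these data known.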

Additional observations from a re-analysis of the deposited data

Results flagged for a closer look

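In each group of 4 arrays, the array farthest from its nearest neighbour was set against the range of the group by Dixon's criterion, for 10 members in 4 groups. Of the 40 groups 2 were past its critical value, and chance alone flags about 1 in 20. Ccl7 in 4-day replicate 3 was at a log2 ratio of -0.0084, with its nearest neighbour in the group at -2.06. Cx3cl1 in untreated replicate 4 was at -0.64, with its nearest neighbour at -0.48, within a group whose SD was 0.088.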

How the results depend on the processing

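The number of members that passed depended on the settings. At 4 days 1 passed, and 0 passed with median centring, processed signals, the deposited value table, an offset of 16, no filter on dim probes, either slide alone, the title code as a random block, or only the compared groups in the model; array weights gave 5. At 60 days 1 passed, and 0 passed with median centring, the deposited value table, either slide alone or the title code as a random block; array weights gave 6 and only the compared groups in the model gave 5. In resistant tumours 0 passed, and array weights gave 2. In the contrast of treated against untreated and resistant tumours 0 passed, and array weights gave 3. In the test of any difference 1 passed, array weights gave 3, and 0 passed with median centring, processed signals, the deposited value table, an offset of 16, Cy5 alone, no filter, a minimum of 8 arrays, either slide alone, the title code as a random block or outlier spots kept.

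Leaving out each array in turn gave 0 to 2 members at 4 days, 0 to 3 at 60 days, 0 to 1 in resistant tumours, 0 to 3 in the contrast of treated against untreated and resistant tumours, and 0 to 2 in the test of any difference. The highest counts at 4 and 60 days came without resistant replicate 1, which passed Ccl2 and Cx3cl1 at 4 days and Ccl2, Cx3cl1 and Il34 at 60 days. Without untreated replicate 3, Il34 passed at 4 days (adjusted p = 0.0498), in resistant tumours (adjusted p = 0.0247) and in the contrast of treated against untreated and resistant tumours (adjusted p = 0.0356). No called member changed direction in any setting. Of the differences of single members under all settings 2101 kept their direction and side of the threshold, 28 passed newly, 34 no longer passed, and 60 that had not passed changed sign. The contrast over 4 groups and the test of any difference could not be fitted with only the compared groups. With the title code as a random block the estimated correlation was 0.233. The cause of these changes was not tested. With median centring the standard error of Cx3cl1 at 4 days was 0.38 in place of 0.15. A slide alone holds 2 arrays of each group. No paired analysis was possible because the labels number no replicates across groups. Leaving resistant replicate 1 out of the correlations, the most similar genes, the list values and the medians of members was chosen after seeing the data.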

Other observations

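Of the marker genes measured beside the members, Mitf, the melanocyte transcription factor, was the 1 that passed in a comparison with untreated tumours, and it is named here after its values were seen. It rose by 0.88 ± 0.20 at 4 days (limma, adjusted p = 0.0459), a call held in 6 of 16 fits that each left out an array. Of the 7 melanocyte markers 6 were higher at 4 days, with a median difference of 0.88, and 6 were higher at 60 days, with a median of 0.95. All 6 hair follicle markers were higher at 4 days (median 1.43) and at 60 days (median 1.45). The 6 granulocyte markers were lower at 4 days (median -0.54), 5 of 6 were lower at 60 days (median -0.93), and 4 of 6 were higher in resistant tumours (median 0.37). Without resistant replicate 1, 4 of 6 were still higher but the median was 0.08, and the mean of the list was 2.86 in resistant against 2.89 in untreated tumours. Fibroblast markers were lower for 7 of 9 at 4 days (median -0.41) and 6 of 9 at 60 days (median -0.62). Adipocyte markers were higher for 5 of 5 at both times (median 0.58 and 0.21). T cell markers had medians of -0.19, 0.06 and -0.35 at 4 days, 60 days and resistance, dendritic and Langerhans markers -0.34, -0.12 and -0.24, and skeletal muscle markers 0.14, -0.47 and -0.02. Among the dendritic markers Xcr1 was not above background on enough arrays to be tested.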
